A study of Caenorhabditis elegans with 12 samples.

Results

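The DNA replication genes described here were 9 *Caenorhabditis elegans* genes, *mcm-2*, *mcm-3*, *mcm-4*, *mcm-5*, *mcm-6*, *mcm-7*, *pcn-1*, *rnr-1* and *rnr-2*. They were taken by name from the 46546 named genes of the count tables, by a rule that used no measured value. The study asked how larvae of the wild-type N2 Bristol strain respond to cadmium (Cd) at different larval stages. Synchronized L1 hermaphrodites were fed *Escherichia coli* OP50 at 20 °C and poly-A RNA of whole animals was sequenced. The unexposed L3 group was grown for 27 h with no added Cd, and the Cd exposed L3 group for 27 h with 20 µM cadmium chloride in the food. The unexposed L4 group was grown for 47 h with no added Cd, and the Cd exposed L4 group for 47 h with the same 20 µM dose. Each of the 4 groups had 3 libraries, and exposure time and larval stage could not be told apart, since each stage had its own time.

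Before a chromosome is copied, the origin recognition complex loads a ring of MCM proteins onto DNA, and this ring becomes the core of the helicase that unwinds the strands in S phase. The sliding clamp PCNA, encoded by *pcn-1*, then holds the polymerases on the template. Ribonucleotide reductase, whose large and small subunits are encoded by *rnr-1* and *rnr-2*, makes the deoxynucleotides that are built in. In *C. elegans* larvae the growing germline is a main site of cell division at the later stages, next to a smaller number of dividing somatic cells.

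The genes lie on 5 chromosomes of the WBcel235 build. The MCM genes *mcm-2* (II, 12001510 to 12006625), *mcm-3* (V, 15056719 to 15059599), *mcm-4* (I, 2318291 to 2321847) and *mcm-5* (III, 4288264 to 4291283) are on the minus strand. Both *mcm-6* (III, 9794367 to 9798643) and *mcm-7* (V, 4347166 to 4349768) are on the plus strand. The remaining genes, *pcn-1* (IV, 4047937 to 4049448), *rnr-1* (III, 9225374 to 9228786) and *rnr-2* (III, 4093306 to 4094921), are on the minus strand. All are protein-coding genes, and the counts covered their exons, whose summed length ran from 991 bases for *pcn-1* to 2826 bases for *mcm-2*. The exons of 4 of them overlapped a gene on the other strand, by 26 bases for *mcm-3*, 15 for *mcm-4*, 6 for *rnr-2* and 4 for *mcm-6*. This was at most 0.968% of the exon length, so a partner's reads could reach only a small stretch of each gene if the counting ignored strand.

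Library totals ran from 23899991 to 44766672 counts. The lowest count of any of the 9 genes in a library was 1258 and the highest was 14457. The metallothionein transcript *mtl-1*, used to check the labels, averaged 5.68 CPM in unexposed and 233 CPM in exposed L3 larvae, and 2.37 and 18.5 CPM at L4, although 1 label field of the exposed libraries gave Cd as 0. Levels are given as CPM, the counts of a gene relative to the library total, scaled with TMM factors, which align the bulk of the genes between libraries. Nothing in the labels said whether replicates came from separate cultures, so the p-values below measure the spread between these libraries, which may be technical.

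All of the 9 genes were higher at L4 than at L3, with and without Cd, and they carried more transcript in every L4 library than in any L3 library. In unexposed larvae the mean level of *mcm-7* rose 5.53-fold, that of *mcm-2* 4.16-fold, that of *rnr-2* 3.86-fold and that of *mcm-4* 2.45-fold. At L3 the exposed means differed from the unexposed ones by -10.6% (*rnr-2*) to 9.27% (*mcm-7*), and at L4 the exposed means were 16.1% (*mcm-6*) to 33.4% (*rnr-2*) under the unexposed means. None of the Cd differences passed the threshold of the study, an adjusted p of at most 0.05 with a log2 fold change of at least 1 in either direction. The plot of levels by library shows the values described in the next paragraphs.

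**Figure D1:**
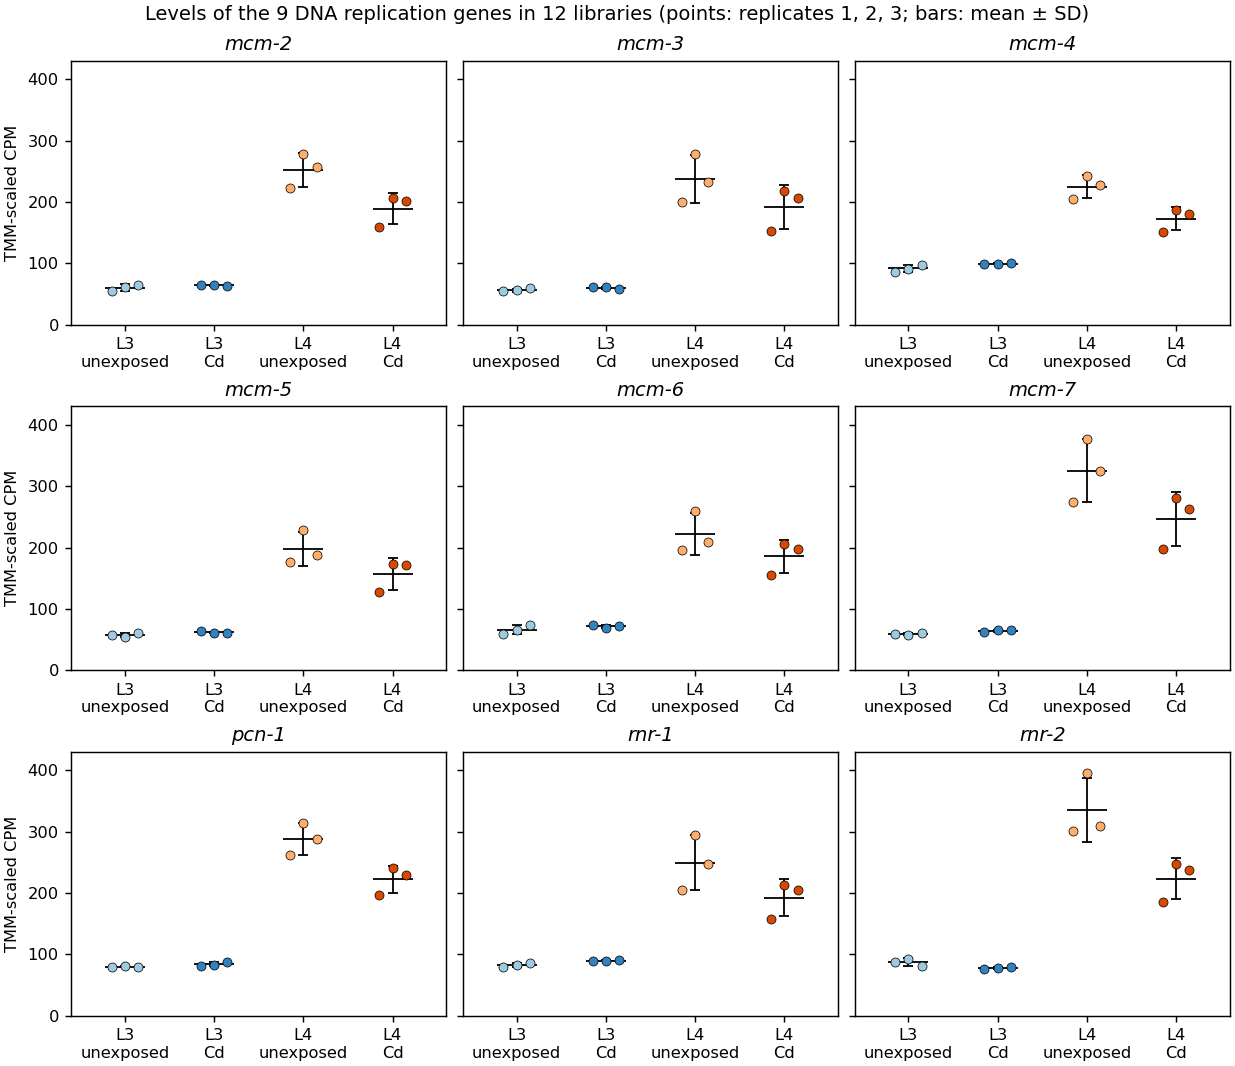
TMM-scaled CPM (y axis) of each of the 9 genes in the 4 groups (x axis); points are replicates 1, 2 and 3 from left to right, and the horizontal line and bars are the mean ± SD (n = 3). Every L4 point lies above every L3 point, and in both L4 groups replicate 1 is the lowest and replicate 2 the highest for all 9 genes.

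Among the MCM genes, *mcm-2* stood at 55.3, 61.8 and 65.3 CPM in the unexposed L3 libraries and at 65.6, 64.5 and 63.5 CPM in the exposed ones. At L4 it stood at 223, 278 and 257 CPM without Cd and at 160, 207 and 201 CPM with Cd. Every exposed L4 library was thus lower than every unexposed one, while the L3 groups overlapped. For *mcm-3* the L3 values were 54.4, 56.2 and 59.3 CPM without Cd and 61.2, 60.9 and 58.7 CPM with Cd. Its L4 values of 199.98, 278 and 233 CPM without Cd overlapped the 152, 218 and 206 CPM with Cd. The encoded proteins are subunits of the same ring, and both genes shared the pattern of nearly level L3 groups and a step up at L4.

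The gene *mcm-4*, for another subunit of the ring, had the highest L3 level of the MCM genes. It was measured at 86.6, 91.5 and 98.1 CPM in unexposed L3 larvae and at 98.5, 99.5 and 101.2 CPM in exposed L3 larvae, groups that just failed to overlap. In the L4 libraries it reached 205, 243 and 229 CPM without Cd and 151, 187 and 181 CPM with Cd, again without overlap but in the other direction. The levels of *mcm-5* at L3 were 58.0, 53.4 and 61.0 CPM without Cd and 63.1, 60.7 and 60.5 CPM with Cd. At L4 *mcm-5* was at 176, 228 and 188 CPM without Cd and at 127, 172 and 171 CPM with Cd, and the highest exposed library lay just under the lowest unexposed one.

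The levels of *mcm-6* overlapped between exposed and unexposed larvae at both stages. They were 58.9, 65.2 and 74.0 CPM without Cd and 73.8, 69.5 and 71.4 CPM with Cd at L3. At L4 they were 196, 260 and 208 CPM without Cd and 155, 205 and 197 CPM with Cd. The steepest rise with stage belonged to *mcm-7*. From 58.3, 57.6 and 60.6 CPM in unexposed and 62.3, 65.7 and 64.8 CPM in exposed L3 larvae, it went to 274, 377 and 325 CPM in unexposed and 197, 280 and 263 CPM in exposed L4 larvae. All of its exposed L3 libraries were above the unexposed ones, and its L4 groups overlapped.

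The clamp gene *pcn-1* had the tightest unexposed L3 replicates, at 79.3, 80.9 and 79.6 CPM (79.9 ± 0.875, SD, n = 3). The exposed L3 libraries held 80.7, 82.5 and 87.7 CPM of it. At L4 *pcn-1* stood at 262, 313 and 288 CPM without Cd and at 197, 240 and 229 CPM with Cd, with no overlap. The large reductase subunit gene *rnr-1* was at 79.5, 81.8 and 85.1 CPM in unexposed and at 88.2, 89.2 and 90.3 CPM in exposed L3 larvae, where the exposed libraries were all higher. At L4 its 205, 295 and 247 CPM without Cd and 157, 213 and 205 CPM with Cd overlapped.

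The small subunit gene *rnr-2* was the exception at L3. Its exposed L3 libraries, at 75.1, 78.2 and 79.3 CPM, were all below the unexposed ones, at 87.1, 93.0 and 80.0 CPM. At L4 *rnr-2* stood at 300.3, 395 and 309 CPM in unexposed and at 185, 248 and 237 CPM in exposed libraries, and the groups were separate. It was the only one of the 9 genes that was lower in every exposed library at both stages.

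The L4 libraries of a group had the same order for every gene. In unexposed L4 larvae replicate 1 was the lowest and replicate 2 the highest library for 9 of the 9 genes, and the same held in exposed L4 larvae. The summed level of the 9 genes was 2041, 2667 and 2284 CPM in unexposed and 1482, 1971 and 1892 CPM in exposed L4 libraries. These sums did not overlap, although the coefficient of variation of single genes reached 18.1% and 18.3% in the respective L4 groups. At L3 the sums were 617, 641 and 663 CPM without Cd and 669, 671 and 677 CPM with Cd. In bulk RNA, fewer cells that express a gene and less RNA per cell cannot be told apart.

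The first comparison asked how the genes changed with stage in unexposed larvae. The log2 fold change of L4 over L3 was 2.53 (SE 0.117) for *mcm-7*, 2.13 for *mcm-3*, 2.12 for *mcm-2* and 2.01 for *rnr-2*. It was 1.91 for *pcn-1*, 1.84 for *mcm-5*, 1.81 for *mcm-6*, 1.66 for *rnr-1* and 1.35 (SE 0.0952) for *mcm-4*. All 9 genes rose past the threshold, with adjusted p-values of 4.34e-07 to 6.59e-06 in edgeR's quasi-likelihood test, adjusted after Benjamini and Hochberg, where 28.5% of the 16487 genes tested were called higher. The groups did not overlap for any of the 9, as for 40.5% of all genes in that direction. The median log2 fold change of the 9 genes was 1.91, against -0.07 over all genes tested.

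In Cd exposed larvae the same comparison gave smaller values, and it shared no library with the unexposed one. The log2 fold change of L4 over L3 ran from 1.93 (SE 0.126) for *mcm-7* to 0.79 (SE 0.0923) for *mcm-4*, with 1.67 for *mcm-3*, 1.55 for *mcm-2*, 1.52 for *rnr-2*, 1.40 for *pcn-1*, 1.37 for *mcm-6*, 1.35 for *mcm-5* and 1.10 for *rnr-1*. Of the 9 genes 8 rose past the threshold, where 25.5% of all genes were called higher. The exception was *mcm-4*, whose adjusted p in edgeR's quasi-likelihood test was 2.56e-05 but whose fold stayed under 2. By the adjusted p alone 9 of 9 rose, against 40.0% of all genes, and the stages did not overlap for any of them (41.5% of all genes). The median was 1.40 against -0.01 over all genes. Means rose 3.84-fold for *mcm-7* and 1.74-fold for *mcm-4* in exposed larvae.

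The MCM proteins act as a ring with single copies of each subunit, and the transcripts of the ring did not rise evenly. For this comparison levels were divided by exon length, and each gene's share of the summed CPM per kb of the 6 MCM genes was taken in every library. The share of *mcm-4* was 22.9, 23.4 and 23.1% in unexposed and 22.8, 23.3 and 23.7% in exposed L3 larvae. At L4 it was 15.8, 14.3 and 15.6% without Cd and 15.8, 14.5 and 14.5% with Cd. At L3 *mcm-4* thus held the largest share in all 6 libraries, and at L4 it was near the others. The share of *mcm-7* took the opposite course, from 16.7, 15.9 and 15.4% in unexposed and 15.6, 16.6 and 16.4% in exposed L3 larvae to 22.8, 24.0 and 24.0% in unexposed and 22.1, 23.4 and 22.8% in exposed L4 larvae. Between stages these shares were far apart, and between exposed and unexposed libraries of a stage they overlapped.

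**Figure D2:**
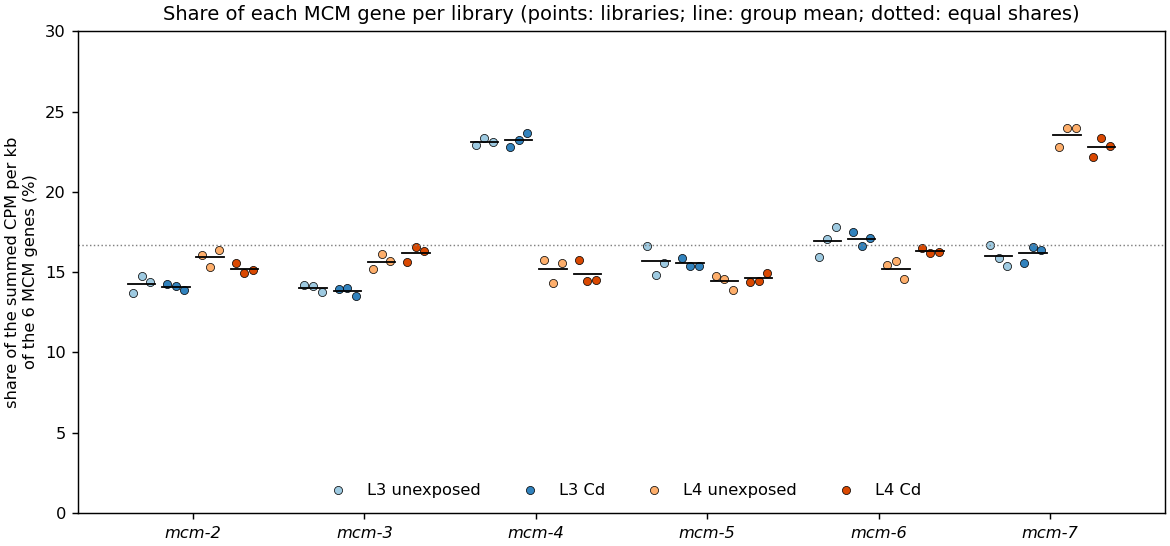
Share of each MCM gene in the summed CPM per kb of the 6 MCM genes (y axis, percent), by gene (x axis) and group (colour); points are libraries and lines are group means (n = 3), and the dotted line marks equal shares. The *mcm-4* points are near 23% at L3 and near 15% at L4, and the *mcm-7* points move the opposite way.

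The remaining MCM genes kept shares between 13.5 and 17.8% in all 12 libraries. The mean share of *mcm-2* was 14.3 and 14.1% at L3 without and with Cd, and 15.9 and 15.2% at L4. That of *mcm-3* was 14.01 and 13.8% at L3 and 15.7 and 16.2% at L4, and that of *mcm-5* 15.7 and 15.6% at L3 and 14.4 and 14.6% at L4. For *mcm-6* the mean share was 16.9 and 17.1% at L3 and 15.2 and 16.3% at L4, and at L4 its exposed libraries (16.5, 16.2 and 16.2%) were all above the unexposed ones (15.4, 15.7 and 14.5%).

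Per kb of exon, *pcn-1* had the highest mean level of the 9 genes in every group, from 80.7 CPM per kb in unexposed L3 larvae to 290.4 in unexposed L4 larvae. The second place belonged to *rnr-2* throughout, at 62.5 CPM per kb in unexposed L3, 55.8 in exposed L3, 241 in unexposed L4 and 161 in exposed L4 larvae. Their libraries overlapped only in unexposed L4 larvae. Next came *mcm-4* at L3 (34.8 without and 37.7 with Cd) and *mcm-7* at L4 (133 and 100.7), with libraries that overlapped those of *rnr-1* except in exposed L3 larvae. The lower places, from *rnr-1* (96.3 CPM per kb) to *mcm-5* (81.1) in unexposed L4 larvae, were not separated, since the libraries of each gene overlapped those of the next. The mean level of the 6 MCM genes stayed between 29.8 and 34.0% of the *pcn-1* level per kb in all 12 libraries, so that the helicase and clamp transcripts kept nearly the same proportion at both stages and with or without Cd.

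The subunits of ribonucleotide reductase did not keep theirs. The ratio of *rnr-2* to *rnr-1* per kb was 2.04, 2.12 and 1.75 in unexposed and 1.59, 1.63 and 1.64 in exposed L3 larvae. At L4 it was 2.73, 2.49 and 2.33 without Cd and 2.18, 2.16 and 2.15 with Cd. The exposed libraries were below the unexposed ones at both stages, and within each treatment the L4 libraries were above the L3 ones. These shares and ratios are given as a description, with no test.

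**Figure D3:**
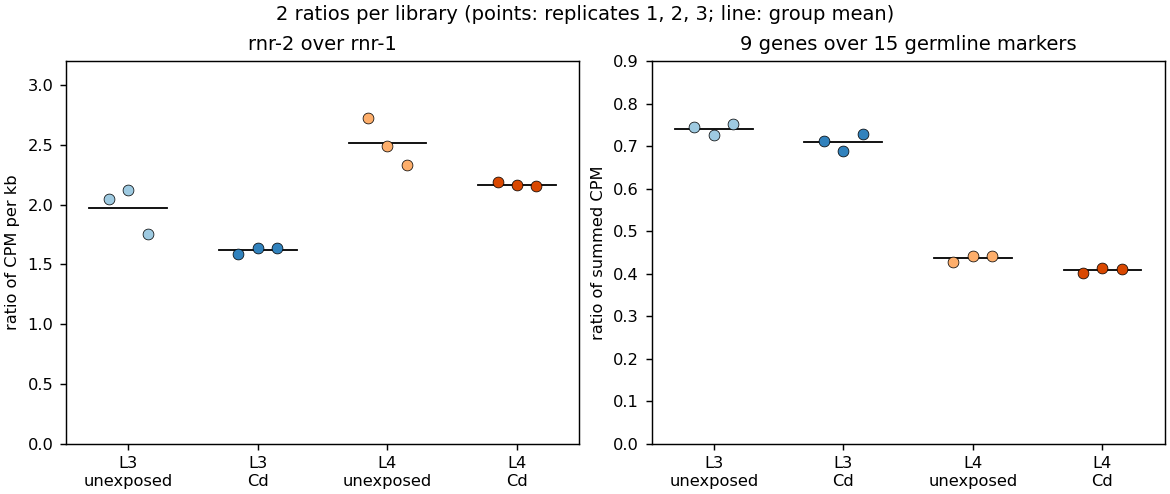
Left, ratio of *rnr-2* to *rnr-1* in CPM per kb (y axis) in the 4 groups (x axis); right, summed CPM of the 9 genes over that of 15 germline markers. Points are replicates 1, 2 and 3 and lines are group means (n = 3). The exposed rnr ratios (1.59 to 1.64 at L3, 2.15 to 2.18 at L4) lie below the unexposed ones of the same stage.

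The next comparison asked what Cd did to these genes at L3, after 27 h. Fitted log2 fold changes of exposed over unexposed larvae were small, from 0.07 (SE 0.0626) for *pcn-1* to 0.13 (SE 0.0632) for *mcm-7* in 8 genes, and -0.16 (SE 0.0744) for *rnr-2*. None of the 9 was called, where 3.63% of the 15024 genes tested were, and none by the adjusted p alone, where 6.53% of all genes were. The adjusted p-values of the 9 ran from 0.231 to 0.512 in edgeR's quasi-likelihood test. At an unadjusted p under 0.05, which 26.0% of all genes reached, the count was also 0 of 9. By DESeq2's adjusted p alone it was 0 of 9 as well, where 14% of all genes passed. The median log2 fold change was 0.10, against 0.01 over all genes. Leaving out single libraries kept all 9 signs and moved the median between 0.07 and 0.15. Without replicate 1 of unexposed L3 the value of *mcm-2* was 0.03 and that of *mcm-6* 0.05, and without replicate 3 they were 0.15 and 0.21. That of *pcn-1* was 0.04 without replicate 3 and 0.11 without replicate 1 of exposed L3, and without replicate 2 of unexposed L3 *mcm-5* was at 0.06 and *rnr-2* at -0.09.

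Whole groups were nevertheless apart for some of these genes at L3. Exposed libraries were all higher for *mcm-4*, *mcm-7* and *rnr-1*, which is 3 of 9 genes, where 15.6% of all genes tested showed this. They were all lower for *rnr-2*, 1 of 9, where 17.4% of all genes did. The percent changes of the means were 8.34 for *mcm-4*, 9.27 for *mcm-7*, 8.63 for *rnr-1* and -10.6 for *rnr-2*.

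At L4, after 47 h, a comparison that shares its libraries with the L4 side of the stage comparisons, 9 of the 9 genes had lower fitted levels in exposed larvae, as did 47.5% of all genes tested. The log2 fold change was -0.56 (SE 0.138) for *rnr-2*, whose mean was 33.4% lower, and -0.40 (SE 0.121) for *mcm-2*, 25.07% lower. It was -0.38 for *mcm-7*, -0.36 for *mcm-4*, -0.35 for both *pcn-1* and *rnr-1*, -0.31 for *mcm-5*, -0.28 for *mcm-3* and -0.23 (SE 0.134) for *mcm-6*. The small reductase subunit gene was thus the farthest from its unexposed level, and the large subunit gene lay in the middle of the range. The median of the 9 genes was -0.35 against 0.03 over all genes, and 9.37% of all genes had a lower value than that median.

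None of these L4 differences was called by the main test. With the fold threshold 0 of 9 were called (0.0432% of the 16201 genes tested) and by the adjusted p alone 0 of 9 (0.0556%), with adjusted p-values from 0.0914 for *rnr-2* to 0.283 for *mcm-6* in edgeR's quasi-likelihood test. At an unadjusted p under 0.05 the lower genes were 6 of 9, *mcm-2*, *mcm-4*, *mcm-7*, *pcn-1*, *rnr-1* and *rnr-2*, against 12.2% of all genes. The groups were apart, with every exposed library lower, for 5 of 9, *mcm-2*, *mcm-4*, *mcm-5*, *pcn-1* and *rnr-2*, against 17.8% of all genes. DESeq2's Wald test put 3 of 9 at or under an adjusted p of 0.05, *rnr-2* (0.011), *pcn-1* (0.0486) and *mcm-4* (0.0499), against 4.24% of all genes with an adjusted p. None of the 3 reached the fold threshold, with DESeq2 log2 fold changes of -0.60, -0.39 and -0.40. When the edgeR fit also held a term for replicate number, 8 of 9 passed the adjusted p without the fold, against 10.3% of all genes in that direction. Whether L4 libraries of the same replicate number belong together could not be settled, so this count adds no support. Leaving out single libraries moved the median of the 9 genes between -0.45 and -0.24, and all 9 signs stayed negative. Without replicate 1 of exposed L4 the value was -0.12 for *mcm-6*, -0.14 for *mcm-3*, -0.18 for *mcm-5*, -0.23 for *rnr-1* and -0.24 for *mcm-7*. Without replicate 2 of unexposed L4 it was -0.12 for *mcm-6* and -0.17 for *mcm-3*.

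**Figure D4:**
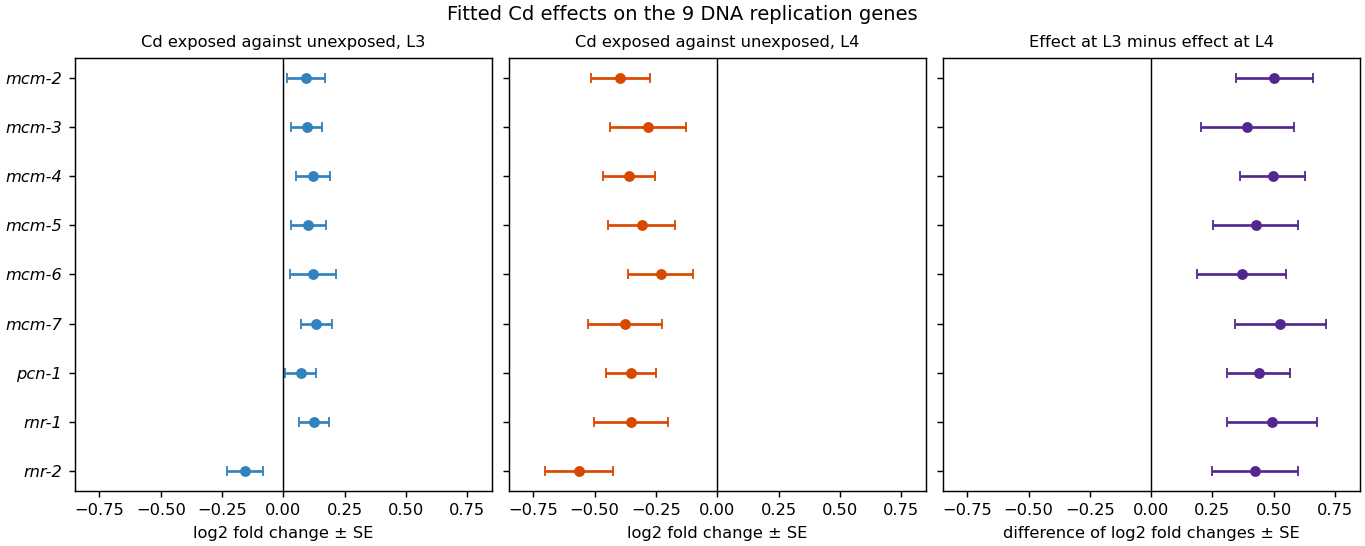
Fitted log2 fold change ± SE (x axis, edgeR) of Cd exposed against unexposed larvae for the 9 genes (y axis) at L3 and at L4, and the difference of both effects. At L3, 8 genes lie between 0.07 and 0.13 and *rnr-2* at -0.16; at L4 all 9 lie between -0.56 and -0.23, and all 9 differences are positive.

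Whether the Cd effect differed between the stages was tested with the interaction over all 12 libraries, coded as the effect at L3 minus the effect at L4. The same contrast is the stage difference in unexposed larvae minus that in exposed larvae. The difference was positive for 9 of 9 genes, from 0.37 (SE 0.182) for *mcm-6* to 0.53 (SE 0.184) for *mcm-7*, with a median of 0.44 against 0.01 over all genes. None of the 9 was called with the fold threshold, where 6.23% of the 17196 genes tested were. By the adjusted p alone 2 of 9 were, against 3.53% of all genes in that direction. These were *mcm-4*, with a difference of 0.50 (SE 0.133, adjusted p 0.0328, edgeR's quasi-likelihood test), and *pcn-1*, with 0.44 (SE 0.127, adjusted p 0.0431). At an unadjusted p under 0.05 the count was 7 of 9 (14.1% of all genes), all but *mcm-3* and *mcm-6*, and DESeq2 gave the same number, 7 of 9, by the adjusted p (12.8% of all genes).

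The interaction calls depended on single libraries. With each of the 12 libraries left out in turn, *mcm-4* kept an adjusted p of at most 0.05 in 5 of 12 fits and *pcn-1* in 3 of 12. The call of *mcm-4* was lost without replicates 1 or 2 of unexposed L3, 2 or 3 of unexposed L4, 2 or 3 of exposed L3 or 1 of exposed L4, and its adjusted p reached 0.082. That of *pcn-1* was lost without any of the same libraries, and also without replicate 3 of unexposed L3 or replicate 3 of exposed L4, up to 0.0952. The differences stayed between 0.41 and 0.57 for *mcm-4* and between 0.36 and 0.53 for *pcn-1*.

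Cell type markers moved between these groups as well. The summed level of 15 germline markers, none of which was at 0, was 829 to 884 CPM in unexposed and 930 to 975 CPM in exposed L3 larvae. At L4 it was 4787 to 6032 CPM without Cd and 3683 to 4758 CPM with Cd. There 15 of the 15 markers had negative fitted values, against 47.5% of all genes tested. At an unadjusted p under 0.05 7 of them were lower (12.2% of all genes), and 0 by the adjusted p (0.0556% of all genes in either direction). Both the rise with stage and the order of the L4 libraries were thus also seen in the germline list, whose lowest L4 library was replicate 1 and whose highest was replicate 2 in either treatment. The summed CPM of the 9 genes divided by that of the germline markers was 0.744, 0.725 and 0.751 in unexposed and 0.711, 0.688 and 0.729 in exposed L3 larvae. At L4 this ratio was 0.426, 0.442 and 0.442 without Cd and 0.402, 0.414 and 0.410 with Cd. The size of the step between stages in this ratio depended on which markers were summed. Without *cgh-1*, *gld-1* and *mex-3*, the 3 markers with the highest level in unexposed L4 larvae, it was 1.02, 0.983 and 1.03 in unexposed L3 and 0.968, 1.05 and 0.991 in unexposed L4 larvae, which overlapped. In exposed larvae it was 0.965, 0.944 and 0.995 at L3 and 0.884, 0.929 and 0.906 at L4, which did not overlap. With stage in unexposed larvae 7 of the 15 markers had a larger log2 fold change than every one of the 9 genes and 4 a smaller one, and the markers' median was 2.30. The exposed L4 ratios were below the unexposed ones without overlap with either set of markers. The 3 markers were left out after the values were seen. In unexposed larvae their log2 fold changes with stage were 3.43 to 4.10. Leaving them out therefore had to bring the ratios of the 2 stages closer, so it is no test.

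Markers of other cell types also differed between the groups. The 6 body wall muscle markers summed to 4645 to 6678 CPM in unexposed and 8127 to 8908 CPM in exposed L4 larvae. All 6 were higher in fitted value and at an unadjusted p under 0.05, as were 14.6% of all genes in that direction. By the adjusted p 0 passed (0.0556% of all genes in either direction). At L3 the muscle sums overlapped, at 5794 to 6744 CPM without and 5454 to 6911 CPM with Cd. Sperm markers, 9 genes, summed to 3.70 to 4.88 CPM in L3 libraries and to 760 to 876 CPM in L4 libraries, with overlap between exposed and unexposed larvae. Of the 6 intestine markers 6 fell with stage by the adjusted p under either condition, as did 40.6% of all genes in unexposed and 39.5% in exposed larvae. With the fold threshold 1 of the 6 fell in unexposed larvae (27.9% of all genes) and 0 in exposed larvae (22.6%). The intestine markers summed to 2404 to 2515 CPM without and 2812 to 2948 CPM with Cd at L3, without overlap. At L4 their sums of 1356 to 1743 CPM without and 1658 to 1803 CPM with Cd overlapped. The 7 epidermis markers summed to 832 to 920 CPM without and 614 to 730 CPM with Cd at L3 and to 181 to 222 and 236 to 335 CPM at L4, without overlap at either stage. The lower sum at L3 did not hold for most of the list. With Cd 5 of the 7 had positive fitted values there and 2 negative ones, among them *rol-6*, whose mean went from 510 to 151 CPM. The 7 neuron markers summed to 500.2 to 532 and 506 to 557 CPM at L3 and to 317 to 347 and 333 to 363 CPM at L4, with overlap at both. None of these lists had a marker at 0 in a whole group. The part of cell composition in the levels of the 9 genes was not tested.

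The wider replication and cell cycle machinery was followed in 83 further genes in 9 groups, from origin licensing to the replication checkpoint, of which 81 were tested. With stage they rose as a rule. In unexposed larvae 66 rose and 2 fell past the threshold, where 28.5% and 27.9% of all genes did. In exposed larvae 49 rose and 2 fell past it, where 25.5% and 22.6% of all genes did. By the adjusted p alone 75 rose and 4 fell in unexposed larvae, where 40.7% and 40.6% of all genes did. In exposed larvae 74 rose and 3 fell by it, where 40.0% and 39.5% of all genes did. Their medians were 1.65 and 1.17, next to 1.91 and 1.40 for the 9 genes.

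Origin licensing genes, which prepare the loading of the MCM ring, passed the threshold in 8 of 8 cases in unexposed and in 3 of 8 in exposed larvae. The origin recognition subunit gene *orc-1* led both, with log2 fold changes of 2.71 and 2.03. Of the genes for helicase partners and firing factors 8 of 9 and 7 of 9 rose past the threshold. The kinase gene *cdc-7* led both, at 2.76 and 2.32. All 6 polymerase and primase genes rose past the threshold in unexposed larvae, and 1 of 6 did in exposed larvae. By the adjusted p alone all 6 rose in exposed larvae as well. The primase gene *pri-2* was the highest, at 1.86 and 1.23. Clamp loaders, single-strand binding and lagging strand genes rose past the threshold in 8 and 7 of 11 cases. They were led by the clamp loader gene *rfc-3* at 2.28 in unexposed and the nuclease-helicase gene *dna-2* at 1.81 in exposed larvae.

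Nucleosome assembly genes rose past the threshold in 4 of 5 and 2 of 5 cases, led by the histone chaperone gene *asfl-1* at 2.87 and 2.47. All 14 mitosis genes rose under both conditions, and the B-type cyclin gene *cyb-2.2* had the highest values, 5.06 and 4.61. Replication checkpoint genes rose past the threshold in 9 and 6 of 10 cases. They were led by *hpr-17*, which encodes a loader of the checkpoint clamp, at 2.14 and 1.59. In the nucleotide supply list only *dut-1*, the gene for the enzyme that removes dUTP, rose past the threshold, by 2.85 and 1.98, out of 5 genes. The G1/S control genes split, with 8 of 13 rising and 2 falling past the threshold under either condition.

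With Cd at L4 the fitted values of the 81 genes were lower for 78 and higher for 3, none was called by the adjusted p, and 47 were lower and 1 higher at an unadjusted p under 0.05, against 12.2% and 14.6% of all genes. The median was -0.29, and list medians ran from -0.21 for G1/S control to -0.36 for helicase partners and firing factors. All of the 14 mitosis genes, 11 clamp loader and lagging strand genes, 10 checkpoint genes, 9 helicase partners and 8 licensing genes had negative fitted values. At L3 67 had positive fitted values, the median was 0.13, and *umps-1* alone was called, as lower, a call that was lost without any 1 of 5 of the 6 libraries. The 3 genes with positive fitted values at L4 were *umps-1*, *adsl-1* and *cki-1*, and the plot of list values shows the single genes of each list.

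**Figure D5:**
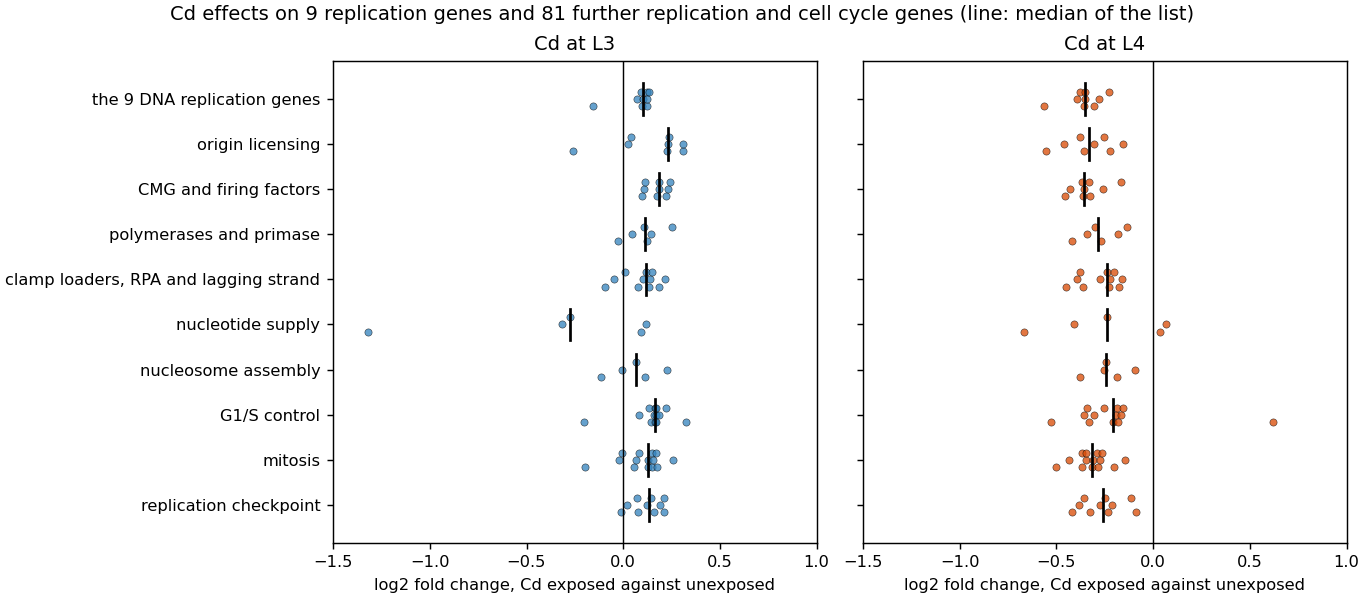
Fitted log2 fold change (x axis, edgeR) of Cd exposed against unexposed larvae at L3 and L4 for the 9 DNA replication genes and for 81 further replication and cell cycle genes in 9 lists (y axis); points are genes and lines are list medians. The median of the 9 genes is 0.10 at L3 and -0.35 at L4, and 78 of the 81 further genes are negative at L4.

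In the interaction, 78 of the 81 further genes had a positive difference, with a median of 0.43. By the adjusted p alone 15 passed in that direction, as did 3.53% of all genes. Among these were *orc-1* (0.61), the licensing factor gene *cdt-1* (0.70), the firing factor gene *sld-2* (0.69), *rfc-3* (0.58), *rfc-4* (0.58), *dut-1* (0.80) and the checkpoint kinase gene *chk-1* (0.53). None of the 15 reached a difference of 1, and 1 gene, *umps-1*, passed in the other direction. With *sld-2*, *cdt-1*, *rfc-4* and *chk-1* the examples were picked after their values were seen.

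The patterns of the 9 genes over the 12 libraries were close to one another. Pearson's r between the log2 level of a gene and the mean of the other 8 was 0.999 for *mcm-2* and *mcm-7* and lowest for *rnr-2*, at 0.987, followed by *mcm-4*, at 0.993. Of 9025 other genes with a mean of at least 10 CPM, those most like the mean of the 9 were *arid-1*, *K06A5.1*, *mrg-1*, *F54D5.9*, *rsa-2*, *polq-1*, *rad-51* and *rnp-1*, each with an r of 0.999. Such a likeness was common, since 1070 genes had an r of at least 0.99, and the 12 points share the step between stages. The level of *arid-1* was 35.3 and 39.7 CPM at L3 and 202 and 145 CPM at L4, without and with Cd in that order. That of *rad-51*, the gene for the strand exchange protein of recombination, was 24.7, 25.9, 60.9 and 51.1 CPM in the same order.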

How the data were processed

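Poly-A RNA of 12 libraries, 3 in each of 4 groups, was measured by paired-end Illumina sequencing. Per the labels and methods the authors trimmed reads with Trimmomatic 0.36, mapped them to WBcel235 with STAR 2.5.2b and made the deposited counts with featureCounts of Subread 1.5.2, which are whole reads per gene with no normalization. Strand setting and treatment of multiply mapped reads were not given in the sources used here. An entry without a gene name, 0.0148 to 2.01% of each library, was left out.

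Counts were fitted in R 4.3.3 with edgeR 4.0.16 (quasi-likelihood test, TMM factors, filterByExpr, limma 3.58.1) on the libraries compared, and on all 12 for the interaction. Adjusted p-values are Benjamini-Hochberg over all genes tested. Calls needed an adjusted p of at most 0.05 and a log2 fold change of at least 1. DESeq2 1.42.0, its size factors, no filter, a replicate block, all 12 libraries, unadjusted p and leaving out each library were alternatives. The fits were tested on simulated data as a check of the code only, which says nothing about the effects described here. The 9 genes were all named, as were, by rule, the gene with the largest called change of each list and any gene against its list. Likeness used log2(CPM + 1). The rule for the 9 genes used names alone, but these genes and the lists were picked with earlier results of these data known. 3 listed genes, *sld-3*, *pold-1* and *opt-2*, had no row of that name. A planned motif search in promoters was not run.

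Library pairs of a group were checked for duplicates. The chi-square over genes, per degree of freedom, was lowest at 3.22 for exposed L4 replicates 2 and 3, above the value of 1 that sampling alone gives, and 12.2 to 91.2 for the other pairs.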

Additional observations from a re-analysis of the deposited data

Results flagged for a closer look

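The Cd effect on *mcm-4* differed between the stages in the interaction test, by 0.50 on the log2 scale (effect at L3 minus effect at L4, SE 0.133, adjusted p 0.0328, edgeR's quasi-likelihood test, adjusted after Benjamini and Hochberg). At L3 3 of 3 exposed libraries were above all unexposed ones, and at L4 3 of 3 were below them. The range of its adjusted p over 16 alternatives was 0.0034 to 0.082. The Cd effect on *pcn-1* differed likewise, by 0.44 (SE 0.127, adjusted p 0.0431), with a range of 0.00519 to 0.0952 over the alternatives. Its exposed libraries overlapped the unexposed ones at L3 and were all lower at L4. Neither difference reached 1 on the log2 scale. With single libraries left out *mcm-4* passed the adjusted p in 5 of 12 fits and *pcn-1* in 3. All 9 genes had positive differences, the largest for *mcm-7*, at 0.53. The 15 germline markers were also all positive, with a median of 0.43 next to 0.44 for the 9 genes. By the adjusted p alone 3 of the 15 passed (3.53% of all genes in that direction). All 6 body wall muscle markers were negative, with a median of -0.60. The other marker lists had both signs.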

How the results depend on the processing

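The direction of all 9 genes in all 5 comparisons held under every alternative run, and the medians of the 9 moved by at most 0.16 on the log2 scale, where the SD within groups, pooled over the 4 groups, was 0.168 for the middle gene. At L3, 545 genes were called in all, 906 with the unadjusted p, and 5 to 1267 without single libraries. At L4 the main test called 7 genes. DESeq2 called 170, the fit without a filter 267, the fit of all 12 libraries 93 and the unadjusted p 463, with 0 to 12 without single libraries. Of the 9 genes those past the p threshold at any fold numbered 0 in the main test at L4 (0.0556% of all genes). With DESeq2 they numbered 3 (4.24% of all genes in the lower direction) and with the unadjusted p 6 (12.2% in that direction). The count was 1 (*rnr-2*) without a filter and 3 with all 12 libraries. In the interaction 1072 genes were called, 1728 with the unadjusted p and 635 to 1555 without single libraries. Of the 9 genes 2 passed the p threshold there at any fold (3.53% of all genes in that direction). With DESeq2 7 did (12.8%), and with the unadjusted p 7 did (14.1%). The count was 4 with DESeq2's size factors, 5 without a filter and 0 to 5 without single libraries. Shares of all genes at any fold are not given here for the other settings. The cause of these moves was not tested.

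The main test did not treat same-numbered replicates as pairs. Correlations of their deviations ran from -0.35 to 0.19 at L3. At L4 they were 0.57 for replicates 1, 0.54 for replicates 2 and -0.16 for replicates 3. Between unexposed replicate 3 and exposed replicate 2 of L4 the value was 0.43. Whether L4 libraries of the same number belong together cannot be settled from so few values. With the replicate block 5 genes were called at L3, 387 at L4, where 8 of the 9 genes (all but *mcm-6*) passed the adjusted p without the fold (10.3% of all genes in that direction), and 5 of the 9 passed it in the interaction (5.15% of all genes).

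DESeq2's size factors moved the median of all genes by 0.14 in the unexposed stage comparison, 0.11 in the exposed one and 0.11 in the interaction. Plain CPM moved the exposed L3 levels of all 9 genes by more than their SD, for example *mcm-4* from 99.7 to 104 CPM. The 9 genes had at least 1258 counts in every library, and their coefficient of variation within a group ran from 1.09 to 18.3%.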

Other observations

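Among the genes of G1/S control, 3 went against their list with stage. The cyclin D gene *cyd-1*, whose product acts with CDK-4 in G1, fell by 1.84 on the log2 scale from L3 to L4 in unexposed larvae (adjusted p 7.32e-05, edgeR's quasi-likelihood test) and by 2.77 in exposed larvae (adjusted p 2.47e-08). Its mean levels were 22.2 and 27.8 CPM at L3 and 5.98 and 4.08 CPM at L4, without and with Cd. The partner gene *cdk-4* fell by 0.68 and 1.28, and the gene of the CDK inhibitor CKI-1 by 1.34 and 0.60. The phosphatase gene *cdc-25.1* of the same list, by contrast, rose by 2.71 in unexposed larvae, from 34.5 to 217 CPM.

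At L3 *umps-1*, the gene for UMP synthase of pyrimidine synthesis, was the only one of the 81 further genes tested that was called with Cd. Its mean level was 239 ± 71.5 CPM without and 95.3 ± 9.22 CPM with Cd (SD, n = 3), a log2 fold change of -1.32 (SE 0.218, adjusted p 0.018, edgeR's quasi-likelihood test). At L4 it stood at 140 ± 15.04 and 144 ± 18.9 CPM, and the difference of the Cd effects was -1.37 (SE 0.264, adjusted p 0.00783). With stage *umps-1* went against the rise of *dut-1* in its list in unexposed larvae only, at -0.70 (adjusted p 0.0154, up to 0.0551 without single libraries). In exposed larvae *umps-1* rose with stage, from 95.3 to 144 CPM. Without single libraries its log2 fold change there was 0.49 to 0.66 (adjusted p 0.000463 to 0.00435, edgeR's quasi-likelihood test). The Cd call at L3 rested on nearly every library, since its adjusted p was 0.065 without replicate 1 and 0.0897 without replicate 2 of unexposed L3, and 0.0876, 0.109 and 0.0612 without replicates 1, 2 and 3 of exposed L3. Without replicate 3 of unexposed L3 it was 2.73e-05. The difference of the Cd effects stayed past the threshold without any 1 of the 12 libraries.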
